A study of Mus musculus with 12 samples.

Results

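The genes described here are 10 members of the YAP-TAZ-TEAD pathway in 3T3-L1 cells, mouse fibroblasts that become adipocytes when a hormone cocktail is added. They are the coactivators Yap1 and Wwtr1 (the gene of TAZ), the DNA-binding partners Tead1 and Tead2, the kinase gene Lats2, and the target or pathway genes Ccn1, Ccn2, Ankrd1, Amotl2 and Ajuba. Members were the rows of the expression table whose gene name is one of these symbols, 10 of the 55487 genes in all. Each symbol had 1 row, and all 10 members were among the 15968 genes that passed the filter on low values, which asked for 1 TPM or more in 2 or more of the 12 libraries. TPM is the authors' length-corrected share of all transcripts in a library, so levels can be set side by side between genes.

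The cells carried a lentiviral hairpin, either a scrambled control (shScram) or one that targets Fto (shFto), the gene of an RNA demethylase. Each line was sequenced as preadipocytes (Pre), at the mitotic clonal expansion stage (MCE) that follows induction, and after differentiation (Diff), which gives 6 groups of 2 libraries. The Pre cells were growth-arrested, and the MCE and Diff cells of both lines had received the same induction medium. For replicate 1 of shScram Diff the labels conflict, since the treatment entry gives the knockdown while the title reads shScram. The library was grouped by its title. Which of the Fto hairpins the sequenced line carried is not named in the sources used here. No source says that the libraries of a group came from separate cultures, so p-values measure only the spread between these libraries. In shFto cells Fto was 9.96%, 10.8% and 10.1% of its mean level in shScram cells at Pre, MCE and Diff, with no overlap between the lines.

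YAP and TAZ are coactivators without a DNA-binding domain, which enter the nucleus and act through the TEAD proteins when cells are spread, stretched or sparse. The Hippo kinases phosphorylate them through LATS1 and LATS2 and keep them in the cytoplasm. Ccn1, Ccn2 and Ankrd1 are widely used readouts of their activity, Lats2 and Amotl2 are targets that feed back as inhibitors, and Ajuba is a LIM protein that binds LATS kinases. In preadipocytes TAZ is known to bind PPARγ, the master regulator of adipogenesis, and to restrain it. Activity of YAP and TAZ is set largely by phosphorylation and location of the proteins, which RNA levels do not measure.

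TEAD proteins bind the letters GGAATG, or CATTCC on the other strand. The 300 bases around each start site, 250 before and 50 after it, were taken from RefSeq (GRCm38.p6) and searched for these letters on both strands. Of all 32851 such windows, 14.7% held a match. A window was found for 8 of the 10 members, and not for Ccn2 and Tead1. These 8 genes had 10 windows, of which 8 held a match, and the windows of Wwtr1 overlap and share theirs. Counted by gene, 7 of the 8 had a match, and Tead2 had none. The 14.7% is a share of windows, and no share by gene over all genes was computed to set beside this count. The match in Lats2 did not lie wholly before the start with enough of the window on its far side, so no stretch is shown for it. The stretches of 30 bases around the matches before the start are shown, since they place these letters beside the genes whose levels follow. Capitals mark the searched letters, each line reads 5′ to 3′ on the strand of the gene, and distances run from the first capital to the RefSeq start.
Ccn1, chr3:145650071-145650100, minus strand, 103 bases before the start: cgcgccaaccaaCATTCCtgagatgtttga
Ankrd1, chr19:36120037-36120066, minus strand, 210 bases before the start: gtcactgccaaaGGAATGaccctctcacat
Ankrd1, chr19:36119950-36119979, minus strand, 123 bases before the start: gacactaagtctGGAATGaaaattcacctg
Ajuba, chr14:54577830-54577859, minus strand, 186 bases before the start: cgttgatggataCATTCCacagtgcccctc
Ajuba, chr14:54577808-54577837, minus strand, 164 bases before the start: tgcccctccgcgCATTCCaactgtaaacaa
Amotl2, chr9:102717727-102717756, plus strand, 65 bases before the start: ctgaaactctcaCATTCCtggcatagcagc
Yap1, chr9:8004720-8004749, minus strand, 141 bases before the start: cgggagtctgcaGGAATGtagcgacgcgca
Wwtr1, chr3:57576029-57576058, minus strand, 136 bases before the nearer of its starts: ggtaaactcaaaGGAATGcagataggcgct
The RefSeq starts used for Ankrd1 and Amotl2 lie inside the longer extent of the gene in GENCODE release M21, so these stretches can be transcribed. A match of 6 letters is a description of the window and not a bound site.

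The libraries of shScram Pre stood apart from each other. The correlation of log2(TPM + 1) across genes between the 2 libraries of shScram Pre was 0.939, and it was 0.990 to 0.993 within the other 5 groups. Across 15928 genes the gap between replicates 1 and 2 of shScram Pre followed the GC content of the transcript (Spearman's rho -0.69, against -0.20 to 0.36 in the other groups). For several results that rest on shScram Pre the value without one of its libraries is given beside them. The test shares the spread of a gene over all groups. A library left out from outside a comparison therefore moves its p-value but not its difference. The shares of all genes called in fits without a library of shScram Pre are given in the section on processing. The adipocyte markers summed to 1364 and 1376 TPM in shScram Diff and to 416 and 453 TPM in shFto Diff, all 7 reaching 1 TPM. Fabp4 was the largest part of the shScram Diff sums (876 and 836 TPM) and held 138 and 118 TPM in shFto Diff. Cebpa alone went the other way at Diff, with 5.77 and 5.19 TPM in shFto against 5.01 and 3.77 TPM in shScram. At Pre the sum was higher in shFto (268 and 300 TPM against 192 and 133 TPM), where Lpl held 247 and 281 TPM against 174 and 112 TPM. All 7 fibroblast markers reached 1 TPM. Their sums were higher in shFto without overlap at MCE (5816 and 5331 TPM against 4031 and 3642 TPM in shScram). The same held at Diff (9071 and 9493 TPM against 7037 and 6666 TPM), and the sums overlapped at Pre. At MCE Dlk1 (484 and 431 TPM in shFto against 1182 and 1106 TPM) and Col1a2 (972 and 887 against 1206 and 1046 TPM) went the other way. Col1a2 was also lower in shFto at Diff (2202 and 2306 against 2669 and 2447 TPM). The other markers of the list were higher in shFto without overlap at MCE and Diff, with Col3a1 at 2915 and 2647 against 859 and 747 TPM at MCE. The part of these markers in the results below was not tested. Of 4 markers each, none of the endothelial list reached 1 TPM in any library, 2 of the macrophage list did (Cd68 up to 3.04 TPM and Csf1r up to 1.40 TPM, with Ptprc and Adgre1 below 1 TPM), and 1 of the epithelial list did (Krt8, up to 1.002 TPM). Of the skeletal muscle list Myod1, Myog and Ckm stayed below 1 TPM. The remaining gene of that list, Des, of the filament protein desmin, was higher in shFto without overlap at each stage, with 13.2 and 11.9 TPM against 4.02 and 5.84 TPM at Pre, 6.52 and 6.32 TPM against 3.28 and 3.56 TPM at MCE, and 11.2 and 10.2 TPM against 6.43 and 7.995 TPM at Diff. In bulk RNA, fewer cells of a type and less RNA per cell cannot be told apart.

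The first question was how the members differ between the lines at each stage. Differences were tested with limma on log2(TPM + 1) over all 15968 genes, and a gene was called at an adjusted p under 0.05. The targets Ccn2 and Ankrd1 rose in shFto cells at each of the 3 stages, and Ccn1 rose at Pre and MCE. Amotl2 fell and Tead1 rose at Diff, and Yap1 fell slightly at Pre. At Pre 3 of 10 members were called higher and 1 lower, against 15.9% and 12.3% of all tested genes. At MCE 3 members were called higher (10.5% of all genes) and none lower (7.26%), and at Diff 3 were called higher (11.9%) and 1 lower (9.31%). The members' median difference was 0.29 at Pre, 0.33 at MCE and 0.07 at Diff, beside 0.08, 0.05 and 0.03 over all tested genes. When each comparison was fitted on its own 4 libraries, no member and no gene at all was called at Pre, where the shScram libraries lie apart, while 6 members were called at MCE and 5 at Diff, against 37% and 41.4% of all genes.

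**Figure D1:**
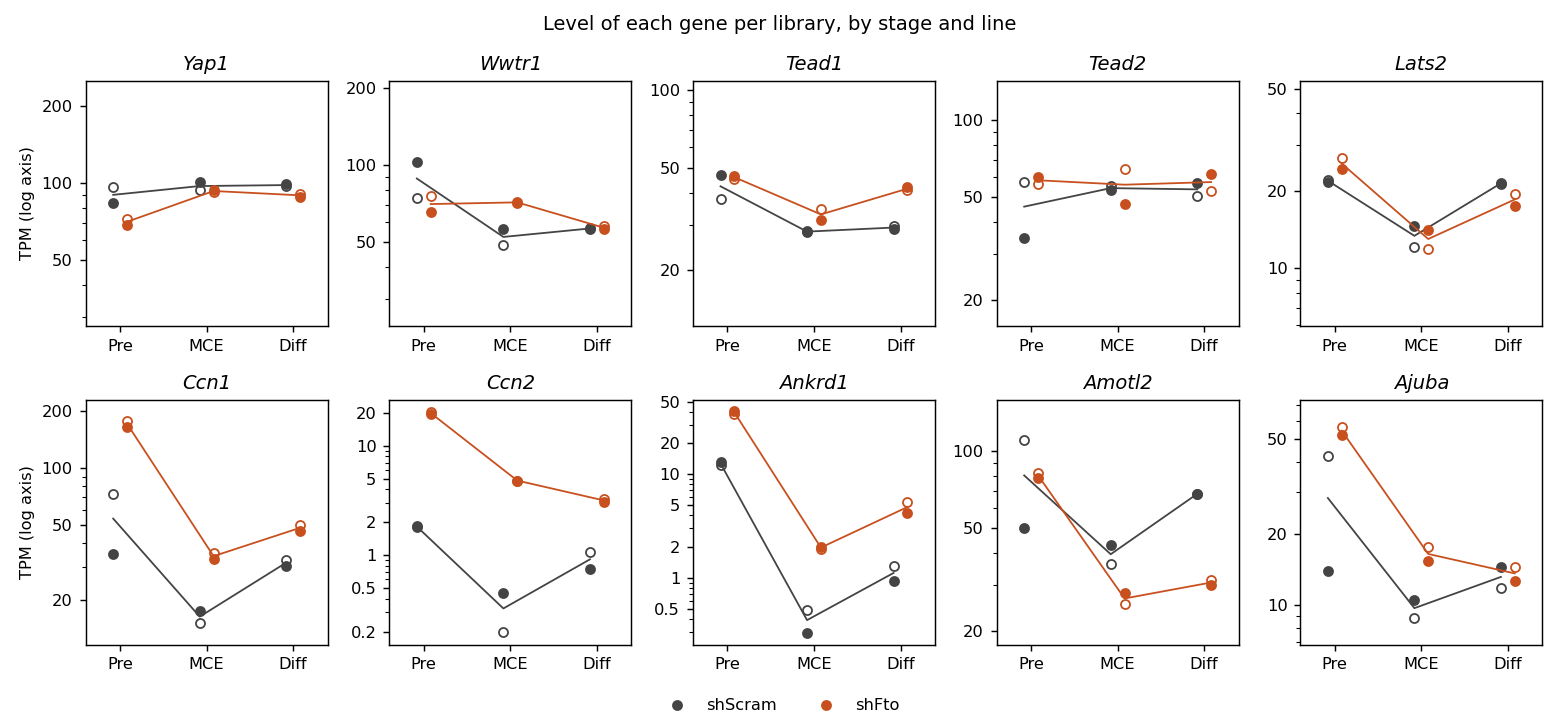
TPM of each member on a log axis at Pre, MCE and Diff, with the span of the axis set for each gene. Filled circles are replicate 1, open circles replicate 2, lines join the means of 2 libraries, grey is shScram and orange shFto. Ccn2 and Ankrd1 lie apart in the lines at each stage, while the shScram Pre libraries of Ccn1, Amotl2, Ajuba and Tead2 lie far from each other.

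Ccn2 (ENSMUSG00000019997, chromosome 10 of GRCm38 from 24595442 to 24598683, plus strand) encodes CTGF, a secreted matrix protein. The shScram libraries held 1.80 and 1.85 TPM at Pre, 0.454 and 0.199 TPM at MCE, and 0.756 and 1.08 TPM at Diff. The shFto libraries held 19.4 and 20.3 TPM at Pre, 4.81 and 4.80 TPM at MCE, and 3.09 and 3.24 TPM at Diff. The 6 shFto values all lay above the 6 shScram values, so that the lowest shFto group exceeded the highest shScram group. The ratio of the means was 10.9 at Pre, 14.7 at MCE and 3.45 at Diff. On the log2(TPM + 1) scale, where changes near 1 TPM come out smaller than the ratio of TPM, Ccn2 was higher by 2.88 ± 0.16 (SE) at Pre, 2.14 ± 0.16 at MCE and 1.12 ± 0.16 at Diff (limma, adjusted p = 2.08e-05, 5.58e-05 and 0.00129). With a pseudocount of 0.1 the differences were 3.37, 3.59 and 1.70. Each of these calls held with any 1 of the 12 libraries left out.

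Ankrd1 (ENSMUSG00000024803, chromosome 19 from 36111961 to 36120099, minus strand) encodes a nuclear and sarcomeric ankyrin repeat protein, and its promoter window held the searched letters at 2 places. The shScram libraries held 13.04 and 12.34 TPM at Pre, 0.296 and 0.487 TPM at MCE, and 0.944 and 1.29 TPM at Diff. The shFto libraries held 40.4 and 38.5 TPM at Pre, 2.01 and 1.92 TPM at MCE, and 4.23 and 5.43 TPM at Diff. The lines did not overlap at any stage, and the 6 groups followed each other in level without overlap. Ankrd1 was 3.11, 5.0 and 4.32 times as high in shFto cells at the successive stages, or higher by 1.56 ± 0.16, 1.09 ± 0.16 and 1.46 ± 0.16 on the log2 scale (adjusted p = 0.000528, 0.00227 and 0.000392). At MCE, where the shScram level was near 0, a pseudocount of 0.1 moved the difference to 2.09. Left-out libraries ended none of these 3 calls.

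Ccn1 (ENSMUSG00000028195, chromosome 3 from 145646976 to 145649981, minus strand) encodes CYR61, a secreted protein of the same family as Ccn2. The shScram libraries held 35.1 and 72.7 TPM at Pre, 17.5 and 15.1 TPM at MCE, and 30.4 and 32.7 TPM at Diff. The shFto libraries held 165.5 and 177.0 TPM at Pre, 33.0 and 35.2 TPM at MCE, and 46.3 and 50.1 TPM at Diff. Both shFto libraries lay above both shScram libraries at each stage, and the shScram libraries at Pre lay 1.03 apart on the log2 scale. Ccn1 was higher in shFto cells by 1.74 ± 0.27 at Pre and 1.02 ± 0.27 at MCE (adjusted p = 0.0033 and 0.0312). At Diff the difference of 0.60 ± 0.27 was not called (adjusted p = 0.16). Without replicate 1 of shScram Pre the Pre difference was 1.22. That library has no part in the Diff difference, which stayed at 0.60. The MCE call was lost when any of 10 of the 12 libraries was left out, with differences from 0.92 to 1.12 and adjusted p up to 0.166, and held without either library of shScram Pre.

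Amotl2 (ENSMUSG00000032531, chromosome 9 from 102716672 to 102733418, plus strand) encodes an angiomotin that holds YAP in the cytoplasm. It ran against Ccn1, Ccn2 and Ankrd1 at the last stage. The shScram libraries held 68.1 and 68.3 TPM at Diff and the shFto libraries 30.01 and 31.58 TPM, so that the shFto mean was 45.2% of the shScram mean. Amotl2 fell there by 1.12 ± 0.29 (adjusted p = 0.0254), a call that was lost when any of the 4 Diff libraries was left out (adjusted p up to 0.119). At MCE the values were 43.1 and 36.2 TPM in shScram against 28.0 and 25.3 TPM in shFto, without overlap (difference -0.55 ± 0.29, adjusted p = 0.252). At Pre the shFto values of 78.4 and 82.6 TPM lay between the shScram values of 50.2 and 110.7 TPM. The Pre difference of 0.11 ± 0.29 (adjusted p = 0.798) turned to -0.46 without replicate 1 of shScram Pre (adjusted p = 0.0135), to 0.67 without replicate 2, to -0.52 after a correction for GC content (adjusted p = 0.00866) and to -0.026 under quantile normalization. Its direction at Pre was thus not the same in these fits.

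Ajuba (ENSMUSG00000022178, chromosome 14 from 54567472 to 54577558, minus strand) had the largest gap between the shScram Pre libraries among the 10 members, 13.9 against 42.7 TPM. The shFto Pre libraries held 52.2 and 56.7 TPM, above both. The difference of 1.12 ± 0.40 was not called (adjusted p = 0.0636). Leaving out replicate 1 of shScram Pre gave 0.34 (adjusted p = 0.136), and leaving out replicate 2 gave 1.89, which was called (adjusted p = 3.4e-06). At MCE the libraries held 10.6 and 8.86 TPM in shScram against 15.3 and 17.6 TPM in shFto (0.70 ± 0.40, adjusted p = 0.285). At Diff the ranges overlapped, with 14.5 and 11.8 TPM in shScram against 12.7 and 14.5 TPM in shFto.

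The coactivators were expressed at high levels in both lines, and their differences between the lines were smaller in size than those of Ccn2 and Ankrd1 at each stage. Yap1 (ENSMUSG00000053110, chromosome 9 from 7931999 to 8004596, minus strand) held 83.5 and 96.5 TPM in shScram Pre and 68.6 and 72.7 TPM in shFto Pre, the lowest of the 6 groups. It was lower there by -0.34 ± 0.11 (adjusted p = 0.0473). This call was lost when any of 10 of the 12 libraries was left out (adjusted p up to 0.201), held without either library of shScram Pre, and was lost after the GC correction, where the difference was -0.16. At MCE and Diff all values of Yap1 lay between 88.6 and 100.9 TPM, with differences of -0.06 ± 0.11 and -0.13 ± 0.11 that were not called.

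Wwtr1 (ENSMUSG00000027803, chromosome 3 from 57455649 to 57575910, minus strand) held 102.6 and 74.4 TPM in shScram Pre and 65.4 and 75.4 TPM in shFto Pre, with overlapping ranges. The difference of -0.31 ± 0.16 was not called (adjusted p = 0.159). Leaving out replicate 1 of shScram Pre gave -0.082, and leaving out replicate 2 gave -0.54, which was called (adjusted p = 0.0013). At MCE the shFto libraries, at 71.2 and 71.8 TPM, lay above the shScram libraries at 56.1 and 48.7 TPM. That difference of 0.44 ± 0.16 was not called (adjusted p = 0.0922), and it was called after the GC correction (adjusted p = 0.00588). At Diff shScram held 56.7 and 56.4 TPM and shFto 56.1 and 57.8 TPM, with overlap.

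Of the DNA-binding partners, Tead1 (ENSMUSG00000055320, chromosome 7 from 112679318 to 112906807, plus strand) held 28.7 and 29.7 TPM in shScram Diff and 42.0 and 40.8 TPM in shFto Diff. It was higher in shFto cells there by 0.49 ± 0.13 (adjusted p = 0.024), and this call was lost with any of the 4 Diff libraries left out (adjusted p up to 0.126) and after scaling by median ratios or quantiles (adjusted p = 0.0582 and 0.0739). At MCE the shFto values of 31.4 and 34.4 TPM lay above the shScram values of 28.1 and 28.2 TPM (0.21 ± 0.13, adjusted p = 0.306). At Pre the lines overlapped, with 46.8 and 37.8 TPM in shScram against 46.6 and 45.2 TPM in shFto (0.12 ± 0.13, adjusted p = 0.467). That value was 0.27 without replicate 1 of shScram Pre, where it was called (adjusted p = 0.0484), and -0.027 without replicate 2. The read counting may have mixed Tead1 with 2310014F06Rik, an overlapping gene on the other strand with a mean of 3.03 TPM, since use of strand is not stated.

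Tead2 (ENSMUSG00000030796, chromosome 7 from 45215753 to 45233644, plus strand) had 6 groups that each overlapped the next in the order of the means. Its 12 values ran from 34.6 TPM in replicate 1 of shScram Pre to 64.8 TPM in replicate 2 of shFto MCE, and the group means ran from 46.1 to 58.3 TPM. Tead2 was called in none of the 9 comparisons. Its difference between the lines at Pre, 0.38 ± 0.23 (adjusted p = 0.229), was 0.020 without replicate 1 of shScram Pre, 0.74 without replicate 2 (adjusted p = 0.00262) and -0.35 after the GC correction. Without replicate 2 its Pre to MCE difference in shScram (0.64, adjusted p = 0.00588, against 0.28 with all libraries) and the change of the line difference from Pre to MCE (-0.71, adjusted p = 0.0167, against -0.35) were also called. The kinase gene Lats2 (ENSMUSG00000021959, chromosome 14 from 57689662 to 57758388, minus strand) held 21.7 and 22.1 TPM in shScram Pre and 24.2 and 26.8 TPM in shFto Pre. At Diff the order was the other way, with 21.3 and 21.5 TPM in shScram against 17.5 and 19.5 TPM in shFto. The differences of 0.21 ± 0.14, -0.04 ± 0.14 and -0.20 ± 0.14 at Pre, MCE and Diff were not called (adjusted p = 0.271, 0.906 and 0.366). Lats2 overlaps Gm20430, a pseudogene on the other strand with a mean of 2.47 TPM.

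**Figure D2:**
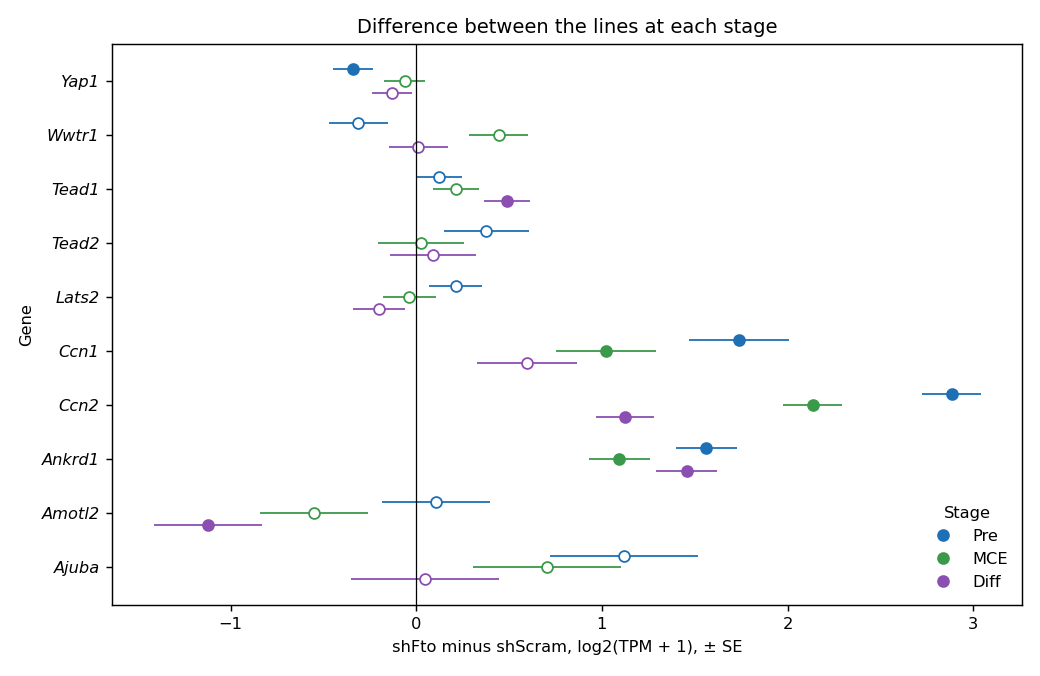
Difference between shFto and shScram on the log2(TPM + 1) scale for each member at the 3 stages, with its limma standard error as a bar. Filled circles are called at an adjusted p under 0.05 and open circles are not. Ccn2 lies furthest to the right at Pre and MCE, at 2.88 and 2.14, and Amotl2 furthest to the left at Diff.

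The second question was how the members move along the course of differentiation in each line. From Pre to MCE most members fell in both lines. In shScram cells 8 of 10 were called lower and none higher, against 26.9% and 12.2% of all genes. In shFto cells 7 were called lower (19.9% of all genes) and 1 higher (8.8%). The medians were -0.81 in shScram and -1.24 in shFto, against -0.17 and -0.18 over all tested genes. Scaling by median ratios brought these all-gene medians to 0.00 and left 5 of the 8 falls in shScram, where Yap1 was then called higher, and 7 of the 8 calls in shFto.

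Ankrd1 showed the largest fall of the members. Its mean at MCE was 3.09% of that at Pre in shScram cells and 4.97% in shFto cells, a fall by 3.30 ± 0.16 and 3.77 ± 0.16 on the log2 scale (adjusted p = 2.19e-06 and 1.71e-06). Ccn2 fell by 1.10 ± 0.16 in shScram and 1.85 ± 0.16 in shFto (adjusted p = 0.000915 and 5.58e-05), although its TPM dropped to a smaller share of the Pre level in shScram (17.9%) than in shFto (24.2%), and with a pseudocount of 0.1 the log2 values were -2.24 and -2.02. Ccn1 fell by 1.58 ± 0.27 in shScram and 2.29 ± 0.27 in shFto (adjusted p = 0.00232 and 0.000331). These 6 calls held with any 1 library left out, and the Ccn1 value in shScram was -2.09 without replicate 1 and -1.07 without replicate 2 of shScram Pre.

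Among the inhibitors and Ajuba, all 3 genes were called lower in both lines. Lats2 fell by 0.68 ± 0.14 in shScram and 0.93 ± 0.14 in shFto (adjusted p = 0.00606 and 0.00138), to 61.0% and 50.8% of its Pre level. The shScram call of Lats2 was lost without replicate 2 of shScram MCE (adjusted p = 0.0547). Amotl2 fell by 1.56 ± 0.29 in shFto (adjusted p = 0.00405), from a mean of 80.5 to 26.7 TPM. In shScram it fell by 0.90 ± 0.29 (adjusted p = 0.0376), a value that was 1.46 without replicate 1 and 0.34 without replicate 2 of shScram Pre. That call was lost with any of the 10 libraries of the other groups left out (adjusted p up to 0.18) and under median-ratio scaling (0.0596). Ajuba fell by 1.67 ± 0.40 in shFto (adjusted p = 0.013) and 1.26 ± 0.40 in shScram (adjusted p = 0.034), and its shScram value was 2.03 without replicate 1 and 0.48 without replicate 2 of shScram Pre. Its shScram call was lost without any of the other 10 libraries (adjusted p up to 0.155), and its shFto call without any of the 4 libraries of that contrast (adjusted p up to 0.079).

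Of the factors, Tead1 was called lower in both lines and Wwtr1 in shScram. Tead1 fell by 0.56 ± 0.13 in shScram and 0.47 ± 0.13 in shFto (adjusted p = 0.00822 and 0.0216). Neither call of Tead1 held after median-ratio scaling, where the values were -0.34 and -0.24, and the shFto call was lost without any of its 4 libraries (adjusted p up to 0.151). Wwtr1 fell by 0.73 ± 0.16 in shScram (adjusted p = 0.00737), from 102.6 and 74.4 TPM to 56.1 and 48.7 TPM, while its means in shFto were 70.4 and 71.5 TPM (0.03 ± 0.16, adjusted p = 0.936). The shScram fall of Wwtr1 was 0.50 without replicate 1 of shScram Pre, still called, and was lost without replicate 2 of shScram MCE (adjusted p = 0.0621) and under median-ratio scaling (0.0535). Yap1 was called higher in shFto cells, by 0.39 ± 0.11 (adjusted p = 0.0261), from 68.6 and 72.7 TPM to 93.6 and 92.7 TPM. That call was lost without any of its 4 libraries (adjusted p up to 0.135). In shScram cells the Yap1 value of 0.12 ± 0.11 was not called (adjusted p = 0.43), and it was called under median-ratio scaling (0.34, adjusted p = 0.0191), after the GC correction (0.50, adjusted p = 0.00713) and without replicate 2 of shScram Pre (0.22, adjusted p = 0.0327).

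From MCE to Diff some of the targets rose again. In shScram cells 4 members were called higher (20% of all genes) and none lower (5.22%), and in shFto cells 2 were called higher (20.2%) and none lower (6.48%). Ankrd1 rose by 0.60 ± 0.16 in shScram and 0.97 ± 0.16 in shFto (adjusted p = 0.0276 and 0.00314), to 8.80% and 12.2% of its Pre level. Lats2 rose by 0.65 ± 0.14 and 0.48 ± 0.14 (adjusted p = 0.0116 and 0.0346), and at Diff stood at 97.7% of its Pre level in shScram. In shScram cells Ccn1 rose by 0.91 ± 0.27 (adjusted p = 0.0381) and Ccn2 by 0.53 ± 0.16 (adjusted p = 0.0383). In shFto cells the Ccn2 value went the other way, by -0.48 ± 0.16 (adjusted p = 0.0529), from 4.81 and 4.80 TPM to 3.09 and 3.24 TPM without overlap, and this difference was called after scaling by median ratios (adjusted p = 0.016) or quantiles (0.005).

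These MCE to Diff calls depend on the scaling. The median over all genes was 0.23 in shScram and 0.17 in shFto, and with it brought to about 0 by median ratios none of the 4 shScram calls held (adjusted p = 0.0643 for Lats2, 0.0733 for Ccn1, 0.0754 for Ccn2 and 0.0708 for Ankrd1). The Ankrd1 call in shFto held under median ratios (adjusted p = 0.0093) and was lost under quantile normalization, where the value was 0.47. Lats2 in shFto was lost under both (adjusted p = 0.145 and 0.17). Without replicate 1 or replicate 2 of shScram Diff, or without replicate 2 of shScram MCE, none of the 4 shScram calls held, while without either library of shScram Pre 6 members were called, against 52% of all genes. Lats2 in shFto was lost without any of 8 of the 12 libraries (adjusted p up to 0.228). Amotl2 was not called in either line, with 43.1 and 36.2 TPM at MCE and 68.1 and 68.3 TPM at Diff in shScram (0.77 ± 0.29, adjusted p = 0.0854) and 28.0 and 25.3 TPM against 30.01 and 31.58 TPM in shFto (0.20 ± 0.29, adjusted p = 0.671).

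**Figure D3:**
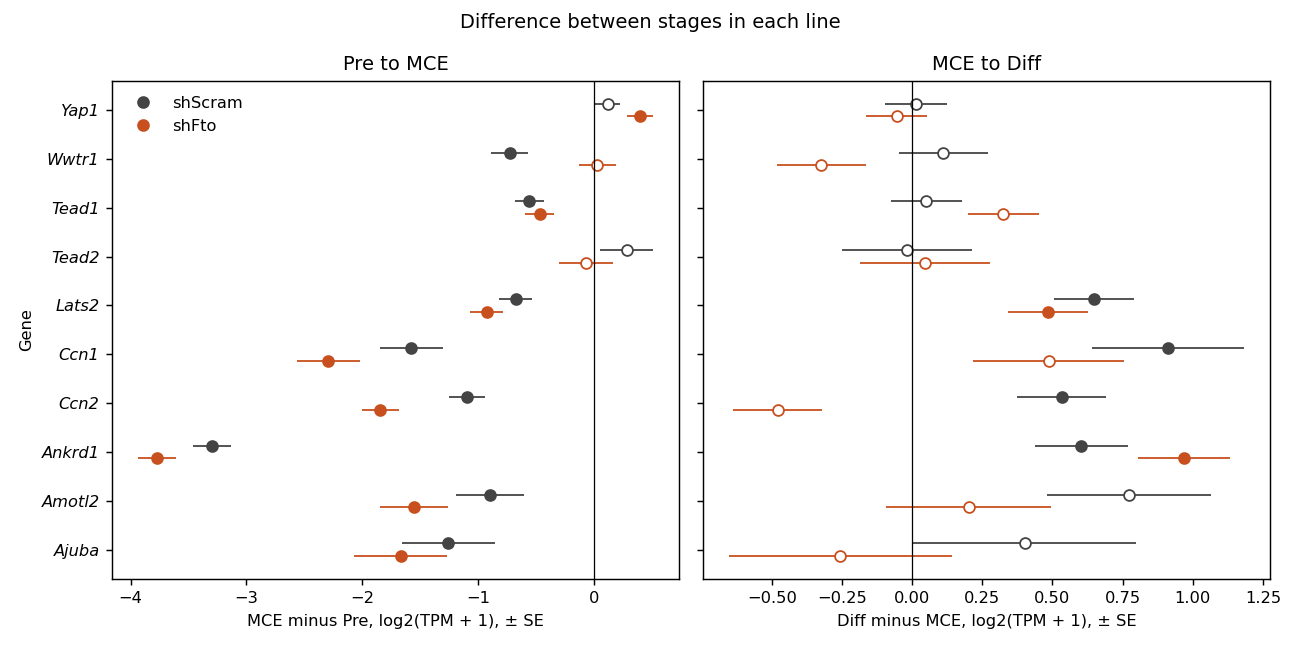
Difference between successive stages on the log2(TPM + 1) scale for each member, with its limma standard error as a bar, grey for shScram and orange for shFto. Filled circles are called at an adjusted p under 0.05, and the horizontal scales of the panels differ. From Pre to MCE 8 members of 10 lie at called falls in shScram and 7 in shFto, and from MCE to Diff no member is called lower.

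Whether the difference between the lines itself changed from stage to stage was tested as an interaction. No member was called by limma, neither from Pre to MCE (5.11% of all genes called) nor from MCE to Diff (2.49%). At an unadjusted p under 0.05 there were 2 members, Wwtr1 and Ccn2, in the first and 1, Ccn2, in the second, against 22.4% and 15.3% of all genes. The line difference of Wwtr1 went from -0.31 at Pre to 0.44 at MCE, a change of 0.76 ± 0.23 (adjusted p = 0.0961). That of Ccn2 changed by -0.75 ± 0.22 from Pre to MCE (adjusted p = 0.0979) and by -1.01 ± 0.22 from MCE to Diff (adjusted p = 0.055). With a pseudocount of 0.1 the first of these Ccn2 values was 0.22, so its sign rests on the pseudocount, while the second was -1.89. Without replicate 1 of shScram Pre, 2 members were called in the first test (Yap1 and Wwtr1) and 5 in the second (Wwtr1, Ccn1, Ccn2, Amotl2 and Ajuba), where Ccn2 had an adjusted p of 0.0153. Of all genes 14.1% and 17.1% were called in these fits. Without replicate 2 the counts of members were 6 and 5, against 52.5% and 17.1% of all genes.

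The gap between the shScram Pre libraries differed from member to member, and the 4 largest gaps were those of the 4 members of highest GC content. Replicate 2 exceeded replicate 1 by 1.55 for Ajuba (58.3% GC), 1.13 for Amotl2 (56.7%) and 1.03 for Ccn1 (52.7%) on the log2 scale. Tead2 had a gap of 0.72 (57.9%). Of the 3 members of lowest GC content, Wwtr1 and Tead1 went the other way, with -0.46 (43.9%) and -0.30 (46.5%), and Yap1 did not, with 0.21 (45.2%). Ccn2 (49.2%) and Ankrd1 (47.9%) had gaps of 0.02 and -0.07, and Lats2 (52.2%) had a gap of 0.03. The part of GC content in the values of the members was not tested beyond the correction given above.

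**Figure D4:**
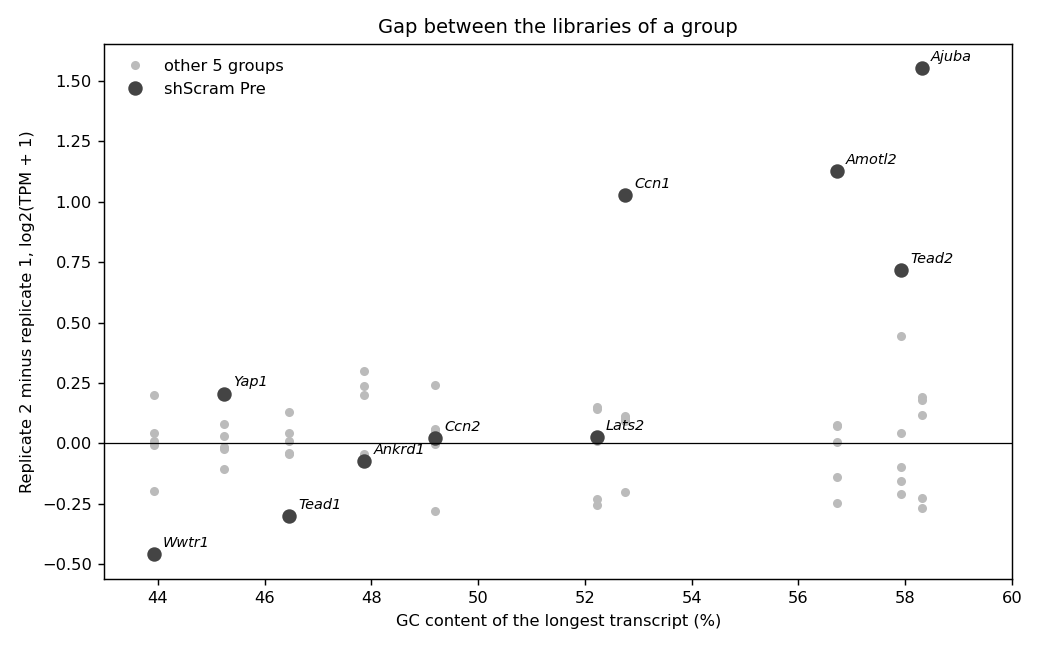
Log2(TPM + 1) of replicate 2 minus replicate 1 for each member, against the GC content of its longest transcript. Dark circles are shScram Pre and pale circles the other 5 groups. Ajuba, Amotl2 and Ccn1 lie above 1 in shScram Pre, while Ccn2, Ankrd1 and Lats2 lie near 0.

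Other genes of the pathway were called in both directions. Of 29 other Hippo pathway genes 27 were tested, without Dchs1 and Vgll2, and of 16 other YAP target genes 15, without Nt5e. Among the pathway genes 6 were called higher and 6 lower in shFto cells at Pre, 2 and 4 at MCE, and 3 and 6 at Diff, where 15.9% and 12.3%, 10.5% and 7.26%, and 11.9% and 9.31% of all genes were called. Their medians were 0.05, 0.02 and -0.13, against 0.08, 0.05 and 0.03 over all genes. Among the other targets 7 were called higher and 4 lower at Pre, 5 and 5 at MCE, and 6 and 2 at Diff, with medians of 0.75, 0.05 and 0.09. Without replicate 1 of shScram Pre the Pre counts were 7 and 7 for the pathway genes and again 7 and 4 for the targets, against 16.1% and 12.9% of all genes, and the targets' median was then 0.32.

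Among the pathway genes at Pre, the Hippo kinase Stk3 fell by 1.40 ± 0.35 and its activator Taok1 by 1.08 ± 0.20 in shFto cells (adjusted p = 0.022 and 0.0066). The Stk3 call was lost in 4 of 22 refits and the Taok1 call in 2. Stk3 held 75.8 and 29.3 TPM in shScram against 16.8 and 17.8 TPM in shFto, and fell by 0.73 without replicate 1 of shScram Pre. The angiomotins differed by stage. Amot fell by 1.63 ± 0.14 at Pre (adjusted p = 0.000197), from 77.5 and 69.4 to 20.7 and 25.4 TPM. Amotl1 fell by 1.31 ± 0.13 at MCE and 1.07 ± 0.13 at Diff (adjusted p = 0.000217 and 0.000555), from 87.7 and 89.3 to 41.4 and 42.1 TPM at Diff, the stage where Amotl2 also fell. Wtip, a LIM protein of the same family as Ajuba, was called higher at Pre by 2.26 ± 0.66 (adjusted p = 0.0352), with shScram values of 2.86 and 23.8 TPM, and by 0.92 without replicate 1 of shScram Pre. The Wtip call was lost in 12 of 22 refits (adjusted p up to 0.307).

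The other TEAD genes were called in opposite directions, at different stages. Tead3 rose by 1.39 ± 0.26 at Pre and 1.06 ± 0.26 at Diff (adjusted p = 0.00779 and 0.0209), with 42.1 and 39.4 TPM in shScram Diff against 89.5 and 83.1 TPM in shFto Diff. At Pre the Tead3 value was 0.88 without replicate 1 of shScram Pre. The Pre call of Tead3 was lost in 2 of 22 refits and its Diff call in 5. Tead4 fell by 1.27 ± 0.23 at MCE (adjusted p = 0.00529), from 42.4 and 41.5 to 16.3 and 17.2 TPM. Vgll4, a cofactor that competes with YAP for the TEAD proteins, fell by 1.08 ± 0.24 at Diff (adjusted p = 0.0121), from 139.5 and 121.5 to 55.9 and 66.3 TPM. The Vgll4 call was lost in 2 of 22 refits.

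Of the other targets, Foxf2, Fjx1 and Igfbp3 were called higher in shFto cells at each stage. Igfbp3, a binding protein of insulin-like growth factors, lay between 0 and 0.129 TPM in the 6 shScram libraries and was listed at 0 in both shScram Diff libraries. Igfbp3 thus passed the filter on low values through shFto libraries alone, so its calls as higher in shFto are not separate from that filter. In shFto cells it held 2.02 and 1.25 TPM at Pre, 13.9 and 14.5 TPM at MCE, and 29.9 and 29.5 TPM at Diff, so its course over the stages ran opposite to that of Ccn2. Fjx1 was higher by 2.17 ± 0.15, 1.13 ± 0.15 and 0.76 ± 0.15 at the successive stages (adjusted p = 7.47e-05, 0.00132 and 0.00829). Its mean lay under 5 TPM, and over the refits its difference reached 4.19 at Pre and 2.00 at MCE, so its size rests on the processing. Whether Fjx1 also passed the filter through shFto libraries alone was not tested, so its calls may not be separate from that filter. Foxf2, a forkhead factor, was higher by 1.91 ± 0.27, 1.15 ± 0.27 and 1.08 ± 0.27 (adjusted p = 0.00207, 0.0182 and 0.0211). The MCE call of Foxf2 was lost in 5 of 22 refits and its Diff call in 4, among them each fit without a library of the contrast (adjusted p up to 0.111 and 0.13).

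Gadd45a, a stress response gene, was higher by 1.88 ± 0.13 at Pre and 1.16 ± 0.13 at Diff (adjusted p = 7e-05 and 0.000399). Nuak2, a kinase gene, was higher by 1.21 ± 0.28 at Pre (adjusted p = 0.0156), a value of 0.72 without replicate 1 of shScram Pre. The Nuak2 call was lost in 3 of 22 refits. Ccdc80, a matrix protein gene, was higher by 1.18 ± 0.13 at Diff (adjusted p = 0.000339). At MCE 3 targets fell by more than 1 on the log2 scale. Tgfb2, a growth factor gene, fell by 1.74 ± 0.20 (adjusted p = 0.000536). Arhgef17 fell by 1.47 ± 0.27 and Myof fell by 1.15 ± 0.12 (adjusted p = 0.00566 and 0.0003). Tgfb2 went from 12.4 and 10.8 TPM in shScram to 3.18 and 2.41 TPM in shFto at that stage. Gadd45a and Taok1 overlap genes on the other strand with means of 2.20 and 2.07 TPM.

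**Figure D5:**
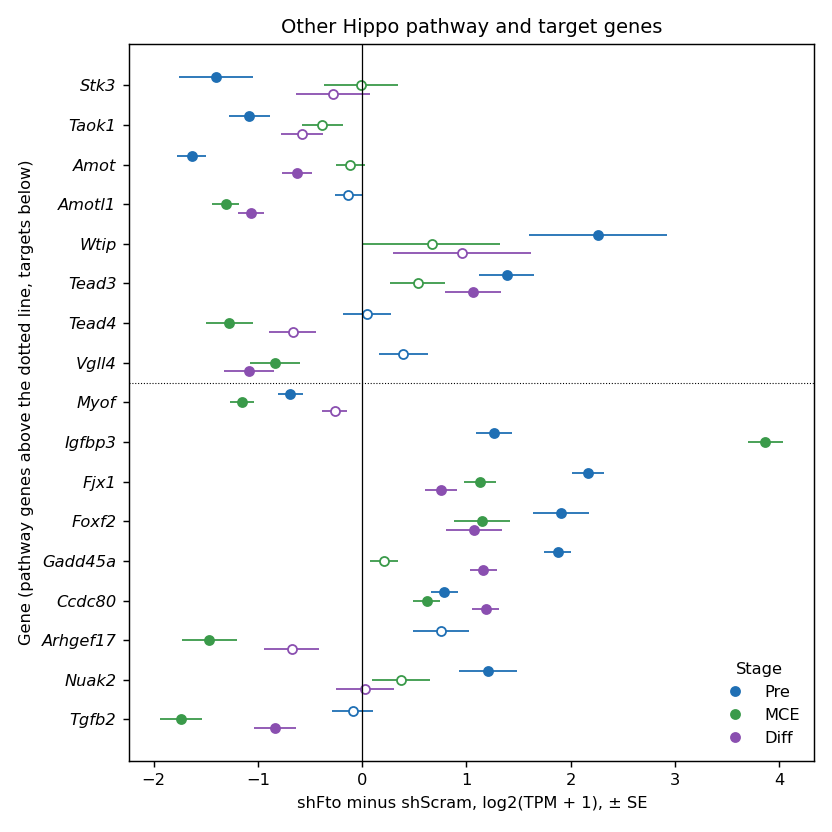
Difference between shFto and shScram on the log2(TPM + 1) scale at the 3 stages, with limma standard errors, for the other pathway genes (above the dotted line) and target genes (below) that were called with a difference of at least 1 in either direction. Filled circles are called at an adjusted p under 0.05. Igfbp3 at Diff is not drawn, since it was listed at 0 in both shScram libraries, and Tgfb2 and Arhgef17 lie furthest left at MCE.

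Across the 12 libraries, other genes followed the members closely, which describes profiles that share libraries and groups. Among 10798 genes with a mean TPM of at least 5, those most like Ankrd1 were Usp18, Tgtp1 and Oas1a (Pearson's r of log2(TPM + 1) 0.990, 0.985 and 0.983, n = 12), all known as interferon-induced genes. Usp18 held 128.3 and 169.8 TPM in shScram Pre, 358.5 and 360.1 TPM in shFto Pre, and 3.27 to 31.5 TPM in the libraries of the later stages. Those most like Ccn2 were Tagln, Irak2 and Ndel1 (r = 0.972, 0.970 and 0.966). Tagln, which encodes the actin-binding protein transgelin, held 98.0 and 98.8 TPM in shFto Pre, and 0.741 to 9.20 TPM in the shScram libraries. Those most like Yap1 were Twsg1, Peg10 and Ppm1l (r = 0.903, 0.901 and 0.896), each lowest in shFto Pre like Yap1 itself.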

How the data were processed

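Gene expression of 12 RNA-seq libraries (2 lines, 3 stages, 2 libraries a group) was analysed. The authors' deposited TPM values come from StringTie 2.1.4 with the gene models of Ensembl release 102, after read trimming (Trim Galore 0.6.5) and alignment to GRCm38 (HISAT2 2.1.0). TPM keeps no read counts, so depth is unknown and the count test of the study was not repeated; 20853 to 24018 genes per library were above 0. Log2(TPM + 1) of 15968 genes was fitted with limma 3.58.1 in R 4.3.3 (a mean per group over all 12 libraries, eBayes with trend, two-sided, Benjamini-Hochberg adjustment over all tested genes) in 9 comparisons. Coordinates, GC content of the longest transcript and overlaps came from GENCODE M21. Python 3.11.15 did the other steps. The test was checked on simulated data.

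The members and lists were chosen with earlier results of these data known. Other pathway and target genes are named where called with a log2 difference of at least 1 between the lines. The 3 genes most like Yap1, Ccn2 and Ankrd1 are named by Pearson's r. Alternatives covered the pseudocount, filters, scaling, the libraries fitted, the spread estimate, a replicate block, a lowess correction for GC content, the study's thresholds and each library left out.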

Additional observations from a re-analysis of the deposited data

How the results depend on the processing

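Of the 33 called differences of the members, none changed direction under any alternative. Of 90 differences in all, 25 took the other sign somewhere, each one not called in the fit reported, and 15 of these, at most 0.47 in size, are not given as values in the report. Ccn2 and Ankrd1 between the lines at MCE and Diff, and the Pre to MCE falls of Lats2, Ccn1, Ccn2, Ankrd1 and Amotl2 in shFto and of Ankrd1 in shScram, passed the adjusted threshold in each of the 22 refits. The study's thresholds were applied to counts of members alone. Of the 25 named differences of other pathway and target genes, 11 passed in each refit that tested them, and Fjx1 was tested in 21 of the 22. Igfbp3 at MCE and Diff and Fjx1 at MCE are among these 11, with the limits on the filter given above. The other 14 lost the call in at least 1, most often Wtip at Pre (12), Foxf2 at MCE (5) and Tead3 at Diff (5).

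The counts of called members, which take in both directions, moved most with the libraries fitted. With only the libraries of a contrast, 0 members were called between the lines at Pre, 6 at MCE, 1 from Pre to MCE in shScram, 6 from MCE to Diff in shFto and 3 in the change of the line difference from MCE to Diff. With single libraries left out, the lowest and highest counts of members were 3 and 8 between the lines at Pre, 2 and 7 at MCE and 2 and 5 at Diff. From Pre to MCE they were 4 and 10 in shScram and 5 and 8 in shFto, and from MCE to Diff 0 and 6 in shScram and 1 and 6 in shFto. For the change of the line difference they were 0 and 6 from Pre to MCE and 0 and 5 from MCE to Diff. Apart from shFto from Pre to MCE, the highest counts came without a library of shScram Pre, where 62.8% of all genes were called at Pre, 41% at MCE, 45.7% at Diff, 64.7% from Pre to MCE and 52% from MCE to Diff in shScram, 51% from MCE to Diff in shFto, and 52.5% and 17.1% for the change of the line difference.

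From MCE to Diff in shScram, 2 members were called with no filter on low values and 0 with median-ratio scaling, quantile normalization or the thresholds of the study (unadjusted p under 0.05 and a fold change over 2). In shFto the count was 1 with quantile normalization, 4 with the GC correction and 0 with the study's thresholds, which left 4 members from Pre to MCE in shScram and 5 in shFto. Both directions enter these counts. With quantile normalization neither of the 2 rises reported from MCE to Diff in shFto held, and Ccn2 was called lower. With the GC correction 1 of these rises held, and Wwtr1, Ccn2 and Ajuba were called lower. Wwtr1 there was -0.32 in the fit reported and ran from -0.53 to -0.30 over the refits. The GC correction called 6 members between the lines at MCE and 2 in each test of a change of the line difference, where median-ratio scaling, the spread estimate without trend and the study's thresholds called 1 from MCE to Diff. The cause of these moves was not tested.

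Values that took the other sign were -0.048 for Lats2 and -0.52 for Amotl2 between the lines at Pre and -0.013 for Amotl2 from MCE to Diff in shFto with the GC correction, -0.0064 for the last with median-ratio scaling, -0.026 for Amotl2 and -0.024 for Tead1 at Pre with quantile normalization, and 0.22 for the change in Ccn2 from Pre to MCE with the pseudocount of 0.1. With the GC correction Tead2 was -0.35 between the lines at Pre, -0.0070 from Pre to MCE in shScram and 0.24 for the change of the line difference from Pre to MCE, and these were the same with the replicate block added. With libraries left out, Tead1 at Pre ran from -0.027 to 0.27, Tead2 from Pre to MCE in shScram from -0.079 to 0.64 and its change of the line difference from -0.71 to 0.0071, Amotl2 at Pre ran from -0.46 to 0.67, Lats2 at MCE from -0.16 to 0.090, and Wwtr1 from Pre to MCE in shFto from -0.075 to 0.13.

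Deviations of same-numbered libraries correlated by over 0.1 in 2 of 15 pairs of groups (-0.29 to 0.17). This cannot settle whether the replicate numbers pair the libraries, since the gap within shScram Pre followed GC content. With the replicate block 1 member was called from MCE to Diff in shFto, and the calls of Yap1 between the lines at Pre, Ccn2 from MCE to Diff in shScram and Lats2 from MCE to Diff in shFto were lost (adjusted p = 0.0702, 0.0597 and 0.0548). The replicate block with the GC correction called 6 members between the lines at MCE and 1 in the change from MCE to Diff, and gave -0.048 for Lats2, -0.52 for Amotl2 at Pre and -0.013 for Amotl2 from MCE to Diff. Depth is unknown, and 2 libraries a group limit the precision of each value. Where a library was left out, the lone library of its group was assumed to vary like the other groups.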
